A study of Homo sapiens with 6 samples.

Results

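Interferon-induced effector genes were followed across 6 cultures of THP-1 cells, the human monocytic leukaemia line JCRB0112.1. The list held 45 genes, which are the IFI, PARP, TRIM, APOL and SAMD9 groups and other antiviral and immune effectors. They were chosen by gene symbol, with earlier results of these data known, so the shares below are a description. Of these 45 genes 44 had a probe set with their symbol on the Human Clariom S array, among 17687 genes with a symbol. TDRD7, the remaining gene, was not analysed here. All cultures had received 100 ng/ml PMA, a phorbol ester that makes THP-1 cells macrophage-like, for 2 days. They were then transfected with Lipofectamine RNAiMAX for 24 h. The mimics were miR-146a-5p, let-7e-5p, let-7d-3p, miR-151a-3p and miR-130a-3p, with a negative control mimic (mimic NC) as the comparator. A mimic is a synthetic duplex that supplies a mature miRNA to the cell. Groups follow the sample titles. The treatment text conflicts with these titles, as it gives a let-7a-5p mimic for all 6 cultures, and the meaning of the number in the title mimic NC 2 is not stated.

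Each group was 1 array. The differences below therefore have no replicate error, and no test per gene was run. All 5 comparisons share the single mimic NC array. A shift in that array would therefore appear in all of them. The number of arrays limits the precision. Values are log2 signals, in which a difference of 1 is a doubling, and the array medians lay between 6.92 and 6.95. Background was 5.39, the level that 95% of the signals of 348 olfactory receptor probe sets did not exceed, since these receptors are mostly silent outside the nose. All 44 genes exceeded it on all 6 arrays, and 11469 of the 17687 genes did so on average. In such bulk RNA, fewer responding cells and less RNA per cell cannot be told apart.

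The labels also call the cells lymphocyte-like. All 14 macrophage or monocyte markers were above background on average, among them CD68 between 15.25 and 15.48 and LYZ between 12.25 and 12.50. MRC1 was near background, from 5.05 with miR-151a-3p to 5.68 with let-7e-5p. CD14 varied more, from 10.68 with let-7e-5p to 11.54 with miR-151a-3p. Of 11 measured markers of T and NK cells 3 were above background on average. CD3E stayed between 5.80 and 6.09, CD4 between 12.63 and 12.94, and NCAM1 between 7.49 and 8.02. CD3D, CD3G and CD247 were not above background. The summed macrophage marker signal stayed between 18.80 and 18.83 on the log2 scale. The summed signal of the 4 measured markers of plasmacytoid dendritic cells, strong interferon producers, went from 12.40 with miR-130a-3p to 13.05 with miR-146a-5p. This sum mostly followed TCF4, the brightest of them, at 12.31 and 12.99 on these arrays. IL3RA was at 7.25 and 7.56, and GZMB went the other way, at 7.53 and 7.42. CLEC4C, the defining marker, was not above background. The part of these 4 markers in the values below was not tested. Of 7 measured B and plasma cell markers 4 were above background on average, and of 9 epithelial and fibroblast markers 2.

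Interferons are secreted cytokines that act through JAK kinases and STAT and IRF transcription factors to switch on a broad set of effector genes. A complex of STAT and IRF proteins binds the interferon-stimulated response element (ISRE), a DNA motif in many of their promoters. In macrophages the effectors include enzymes that starve or damage viral RNA, ubiquitin ligases of the TRIM family, ADP-ribosyltransferases of the PARP family, lipid-binding APOL proteins and membrane proteins that hold back virus particles.

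The mature sequences below show which seed (bases 2 to 8, in capitals) each mimic supplied. The RefSeq sequences used here, on GRCh38.p14, cover 3 of the 5 mimics, at chr9:94178895-94178916, chr19:51692793-51692814 and chr5:160485372-160485393, all on the plus strand. The seeds of these 3 differ.
let-7d-3p: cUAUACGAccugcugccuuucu
let-7e-5p: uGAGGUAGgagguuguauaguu
miR-146a-5p: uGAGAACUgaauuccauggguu

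The effector genes differed most between the miR-146a-5p and let-7d-3p arrays. Of the 44 genes 37 had their highest signal of the 6 arrays with miR-146a-5p, against 16.0% of all genes above background. With let-7d-3p 32 had their lowest signal, against 23.7% of all genes, and 28 did both, against 5.79%. Ties were given to the array listed first. They touched XAF1 and TRIM21, where miR-146a-5p equalled let-7e-5p, and BST2, where let-7d-3p equalled miR-151a-3p. These arrays were picked because they held most of the extremes, so the difference between them is a description. In all 44 the miR-146a-5p signal exceeded the let-7d-3p signal (53.7% of all genes), with a median log2 difference of 0.92 against 0.03 over all genes. The difference reached 1.5-fold for 34 of them (5.97% of all genes). It went from 0.02 for LGALS9 to 2.26 for HESX1, and it does not rest on the mimic NC array.

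With the let-7d-3p mimic all 44 genes were lower than with mimic NC (53.2% of all genes), with a median log2 ratio of -0.49 against -0.02 over all genes. At least 1.5-fold lower were 16 of 44, against 3.28% of all genes. The lowest ratios were those of STAP1, an adaptor of tyrosine kinase signalling (-1.21), and LAMP3, a lysosomal protein of mature dendritic cells (-0.98). TRIM38 (-0.07) and NMI (-0.14) were nearest to mimic NC.

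With the miR-146a-5p mimic 42 of 44 were higher than with mimic NC (51.1% of all genes), with a median of 0.40 against 0.01. At least 1.5-fold higher were 14, against 2.97% of all genes. HESX1, a homeobox repressor known from pituitary development, was 2.55-fold higher, and CD38, an enzyme that breaks down NAD, 2.20-fold higher. The exceptions were LGALS9 (-0.20) and SIGLEC1 (-0.02). With the other 4 mimics as comparator, 22 genes were at least 1.5-fold higher, against 1.98% of all genes.

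With the let-7e-5p mimic 37 were higher (48.6% of all genes) and 6 lower, with a median of 0.25 against 0 over all genes. The 5 that were at least 1.5-fold higher, against 2.46% of all genes, were HESX1, IFI27, STAP1, IDO1 and ISG20. With the median of the other 4 mimics in place of mimic NC, 15 genes were at least 1.5-fold higher, against 1.72% of all genes. SIGLEC1 (-0.16) and DTX3L (-0.13) had the lowest ratios. Between both higher arrays, miR-146a-5p exceeded let-7e-5p for 38 genes and was below it for 4 (TRIM56, LGALS9, PARP14 and TRIM5). This difference had a median of 0.20, and it reached 1.5-fold for 2 genes, LAMP3 (0.89) and CD38 (0.87).

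With the miR-130a-3p mimic 42 of 44 were lower than with mimic NC (47.9% of all genes), with a median of -0.28 against 0.01. No member was 1.5-fold lower, against 2.72% of all genes. With the median of the other 4 mimics in place of mimic NC, 5 were, against 1.62% of all genes. CD38 (-0.58) and IDO1 (-0.54), which degrades tryptophan, had the lowest ratios to mimic NC. PARP10 (0.23) and TRIM56 (0.03) were the only ones above mimic NC. With miR-151a-3p 38 of 44 were lower (44.4% of all genes), with a median of -0.22 against 0.03. The 3 that were at least 1.5-fold lower, against 3.35% of all genes, were IFI27, LAMP3 and TRIM22. PARP10 (0.35) and IDO1 (0.34) had the highest ratios there.

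**Figure D1:**
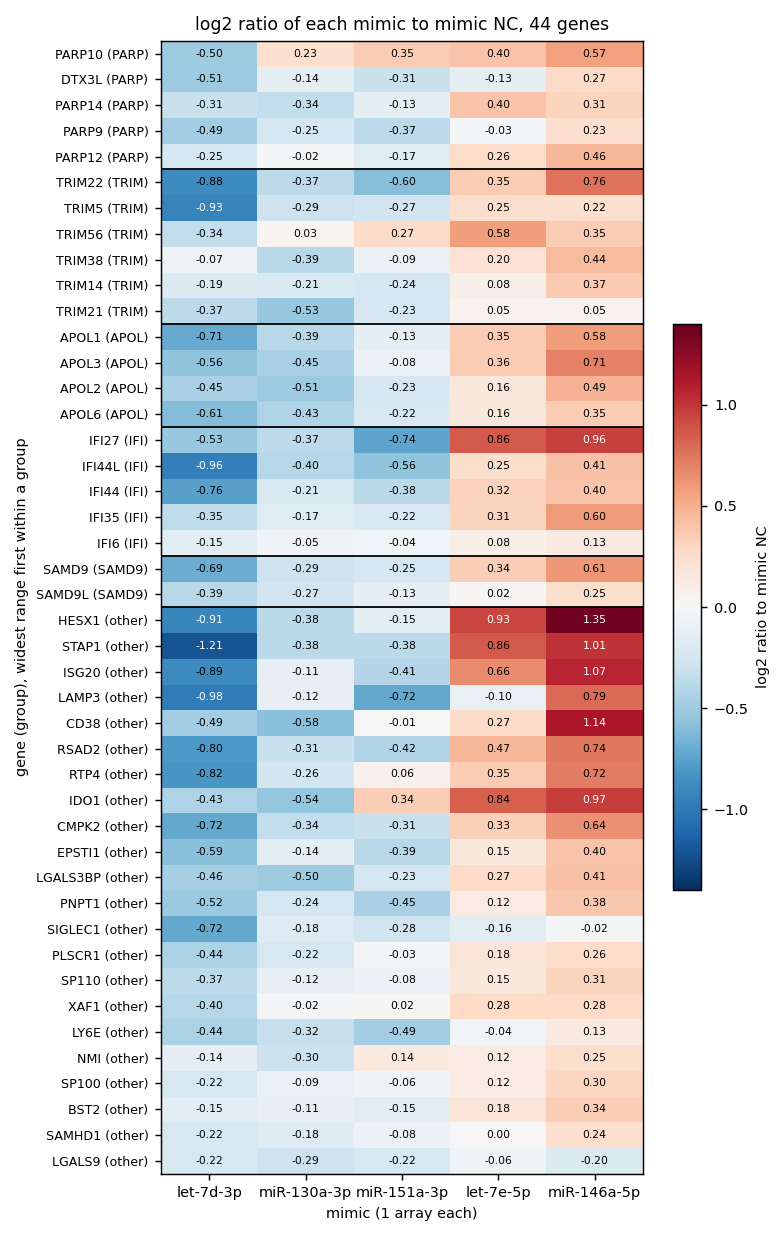
Log2 ratio of each mimic to mimic NC (columns, 1 array each) for the 44 genes (rows, grouped, widest range first), with red for higher and blue for lower signals. The let-7d-3p column is below 0 for all 44 genes, and the miR-146a-5p column is above 0 for 42.

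The IFI group was higher with let-7e-5p and miR-146a-5p and lower with the other 3 mimics for all 5 genes, but by very different amounts. IFI27, a mitochondrial membrane protein, had log2 signals of 10.86 with miR-146a-5p, 10.76 with let-7e-5p, 9.90 with mimic NC, 9.53 with miR-130a-3p, 9.37 with let-7d-3p and 9.16 with miR-151a-3p. Its lowest signal was thus with miR-151a-3p, 1.67-fold below mimic NC. IFI6, a relative of IFI27 in the endoplasmic reticulum that hinders flaviviruses, had signals of 17.25 with miR-146a-5p, 17.20 with let-7e-5p, 17.12 with mimic NC, 17.08 with miR-151a-3p, 17.07 with miR-130a-3p and 16.97 with let-7d-3p. Its range of 0.28 was the narrowest of all 44 genes. IFI6 was brighter than 99.9% of probe sets, and whether the top of the scale narrowed its range was not tested.

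IFI44L and IFI44 are neighbouring paralogs of a family of interferon-induced cytoplasmic proteins. IFI44L was at 14.22 with miR-146a-5p, 14.06 with let-7e-5p, 13.81 with mimic NC, 13.41 with miR-130a-3p, 13.25 with miR-151a-3p and 12.85 with let-7d-3p. It was 1.95-fold lower with let-7d-3p and 1.33-fold higher with miR-146a-5p, so its distance below mimic NC was the larger. IFI44 had ratios of -0.76 with let-7d-3p and 0.40 with miR-146a-5p. IFI35, a partner of the cytoplasmic protein NMI, had the opposite balance, at -0.35 and 0.60. NMI had signals of 13.23 with miR-146a-5p, 13.12 with miR-151a-3p, 13.10 with let-7e-5p, 12.98 with mimic NC, 12.84 with let-7d-3p and 12.68 with miR-130a-3p. It was nearer to mimic NC than IFI35 with let-7d-3p (-0.14) and miR-146a-5p (0.25), and above it with miR-151a-3p (0.14).

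The PARP group holds PARP9 with its ubiquitin ligase partner DTX3L, and PARP10, PARP12 and PARP14, which attach single ADP-ribose units to proteins. No gene of this group was 1.5-fold away from mimic NC with any mimic. In the direction of the group median, between 2.46% (let-7e-5p) and 3.35% (miR-151a-3p) of all genes were. A count of 0 of 5 genes is near that share. The medians were -0.49 with let-7d-3p, -0.14 with miR-130a-3p, -0.17 with miR-151a-3p, 0.31 for miR-146a-5p and 0.26 for let-7e-5p. PARP10 had the widest range, with signals of 9.44 with miR-146a-5p, 9.27 with let-7e-5p, 9.22 with miR-151a-3p, 9.10 with miR-130a-3p, 8.87 with mimic NC and 8.37 with let-7d-3p. It was below mimic NC with let-7d-3p only, unlike the other 4 genes of the group. PARP12 had the narrowest range, with signals of 14.17 with miR-146a-5p, 13.97 with let-7e-5p, 13.71 with mimic NC, 13.69 with miR-130a-3p, 13.54 with miR-151a-3p and 13.46 with let-7d-3p.

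PARP9 and DTX3L lie head to head on chromosome 3, and their protein products form a dimer. DTX3L had signals of 13.33 with miR-146a-5p, 13.06 with mimic NC, 12.93 with let-7e-5p, 12.92 with miR-130a-3p, 12.75 with miR-151a-3p and 12.55 with let-7d-3p. Their ratios were -0.49 and -0.51 with let-7d-3p, -0.03 and -0.13 for let-7e-5p, and 0.23 and 0.27 for miR-146a-5p. For miR-130a-3p they were -0.25 and -0.14, and for miR-151a-3p -0.37 and -0.31. The genes of this pair differed by at most 0.11 in any comparison. PARP14, further along the chromosome, differed from DTX3L by 0.53 with let-7e-5p (0.40 against -0.13). The sequences below are shown because the promoter windows of both genes hold the same ISRE-like match (capitals), at chr3:122564332-122564340 of GRCh38.p14, read from opposite strands. Counted from its first base in the direction of the gene, it begins 6 bases before the start of DTX3L on the plus strand, so that it runs across that start, and 40 bases before the start of PARP9 on the minus strand. The stretches printed are 1 base apart ( chr3:122564322-122564351 and chr3:122564321-122564350).
DTX3L: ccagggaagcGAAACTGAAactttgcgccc
PARP9: ggcgcaaagtTTCAGTTTCgcttccctgga

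The TRIM group was higher with let-7e-5p and miR-146a-5p and lower with let-7d-3p for all 6 genes. TRIM22, a ubiquitin ligase that restricts HIV transcription, had the widest range, with signals of 12.92 with miR-146a-5p, 12.51 with let-7e-5p, 12.16 with mimic NC, 11.79 with miR-130a-3p, 11.56 with miR-151a-3p and 11.28 with let-7d-3p. TRIM21, the cytosolic antibody receptor, had the narrowest, with signals of 10.70 with let-7e-5p, then 10.70 with miR-146a-5p, 10.65 with mimic NC, 10.42 with miR-151a-3p, 10.28 with let-7d-3p and 10.12 with miR-130a-3p. TRIM22 was spread to both sides of mimic NC, whereas TRIM21 was mainly below it and lowest with miR-130a-3p (1.44-fold). TRIM5, which recognises retroviral capsids and lies beside TRIM22 on chromosome 11, was 1.91-fold lower with let-7d-3p, near TRIM22 (1.84-fold). With miR-146a-5p these neighbours parted, at 1.16-fold higher for TRIM5 and 1.69-fold higher for TRIM22.

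TRIM56, a ligase linked to STING and TLR3 signalling, had a different order of arrays. Its signals were 10.48 with let-7e-5p, then 10.25 with miR-146a-5p, 10.17 with miR-151a-3p, 9.93 with miR-130a-3p, 9.90 with mimic NC and 9.56 with let-7d-3p. It was highest with let-7e-5p and above mimic NC with 4 of 5 mimics. TRIM14, an adaptor of mitochondrial antiviral signalling, and TRIM38, a regulator of Toll-like receptor signalling, had ratios of 0.37 and 0.44 with miR-146a-5p. With let-7d-3p they were at -0.19 and -0.07. TRIM38 had signals of 11.25 with miR-146a-5p, 11.01 with let-7e-5p, 10.81 with mimic NC, 10.74 with let-7d-3p, 10.72 with miR-151a-3p and 10.42 with miR-130a-3p, so that only miR-130a-3p lay well below mimic NC.

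Genes of the same families outside the list were set beside these groups, chosen by symbol alone. The 12 other PARP genes above background, such as the DNA damage sensor PARP1, had a median of -0.22 for let-7d-3p and one of 0.12 for miR-146a-5p, between those of the listed PARP genes and those of all genes. The 27 other TRIM genes were at -0.09 for let-7d-3p and -0.14 for miR-146a-5p, where the listed TRIM genes were at -0.36 and 0.36. With miR-146a-5p 16 of these 27 were lower than with mimic NC, as were 5391 of all 11469 genes above background. The median range over the 6 arrays was 0.74 for the listed PARP genes against 0.38 for the others, and 0.88 for the listed TRIM genes against 0.53 for the others. No further APOL gene was above background.

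**Figure D2:**
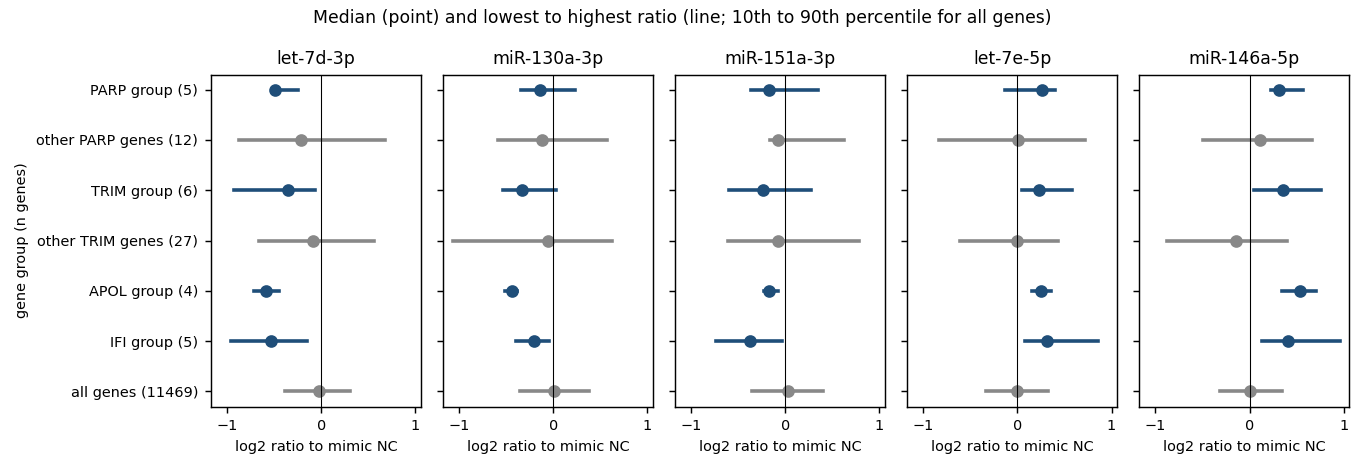
Log2 ratio to mimic NC (x axis) for the listed PARP, TRIM, APOL and IFI groups (blue), their relatives outside the list and all genes (grey), in 1 panel per mimic. Points are medians over genes and lines span the lowest to the highest gene, or the 10th to the 90th percentile for all genes. With let-7d-3p the 4 APOL genes span from -0.71 to -0.45.

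All 4 genes of the APOL group lay on the same side of mimic NC with each mimic, below it with let-7d-3p, miR-130a-3p and miR-151a-3p and above it with the other mimics. These apolipoprotein L genes lie near each other on chromosome 22. APOL1, the trypanosome-killing serum factor, had the widest range, with signals of 11.86 with miR-146a-5p, 11.63 with let-7e-5p, 11.28 with mimic NC, 11.15 with miR-151a-3p, 10.89 with miR-130a-3p and 10.57 with let-7d-3p. APOL6, a cytosolic relative, had the narrowest, with signals of 10.67 with miR-146a-5p, 10.48 with let-7e-5p, 10.32 with mimic NC, 10.10 with miR-151a-3p, 9.89 with miR-130a-3p and 9.71 with let-7d-3p. Both had the same order of arrays. APOL3, which breaks up the membranes of cytosolic bacteria, had a 1.64-fold higher signal with miR-146a-5p (7.09, with 6.38 for mimic NC). Its mean signal was the lowest of the list. With a pseudocount of 32 the log2 ratio of APOL3 with miR-146a-5p fell from 0.71 to 0.55, below 1.5-fold. APOL2 was lowest with miR-130a-3p (-0.51) rather than let-7d-3p (-0.45). The APOL median with miR-130a-3p was -0.44, lower than those of the PARP (-0.14), TRIM (-0.33) and IFI (-0.21) groups, and with miR-146a-5p it was 0.54, higher than their 0.31, 0.36 and 0.41. With miR-151a-3p the IFI median was lowest, at -0.38. The differences between groups were not tested.

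SAMD9 and SAMD9L are neighbouring paralogs on chromosome 7 that restrict poxviruses and cell growth. SAMD9 had signals of 14.26 with miR-146a-5p, 13.99 with let-7e-5p, 13.65 with mimic NC, 13.40 with miR-151a-3p, 13.36 with miR-130a-3p and 12.96 with let-7d-3p. SAMD9L had signals of 15.22 with miR-146a-5p, 14.99 with let-7e-5p, 14.97 with mimic NC, 14.84 with miR-151a-3p, 14.70 with miR-130a-3p and 14.58 with let-7d-3p. The order of arrays was the same, while the range was 1.30 for SAMD9 and 0.64 for SAMD9L. How far the probes of paralogs share signal was not tested.

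Among the other effectors, STAP1 and HESX1 had the widest ranges of the list. HESX1 had signals of 9.99 with miR-146a-5p, 9.57 with let-7e-5p, 8.64 with mimic NC, 8.49 with miR-151a-3p, 8.26 with miR-130a-3p and 7.73 with let-7d-3p. STAP1 had signals of 10.87 with miR-146a-5p, 10.72 with let-7e-5p, 9.86 with mimic NC, 9.48 with miR-130a-3p, 9.48 with miR-151a-3p and 8.65 with let-7d-3p. For both genes let-7e-5p and miR-146a-5p stood above the other 4 arrays and let-7d-3p below them. STAP1 was the only gene of the list that was at least 2-fold lower with let-7d-3p (2.31-fold), as were 0.270% of all genes. With miR-146a-5p 4 genes were at least 2-fold higher, namely HESX1, CD38, ISG20 and STAP1, against 0.288% of all genes. With a pseudocount of 32 the log2 ratios of CD38 (0.93) and STAP1 (0.986) were just under 2-fold. Those of HESX1 (1.28) and ISG20 (1.02) stayed past it. STAP1 was also just under 2-fold with repeated quantile normalization (0.99).

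Effectors that act on nucleic acids and nucleotides included ISG20, an exonuclease that degrades viral RNA. It had signals of 9.59 with let-7e-5p, 8.93 with mimic NC, 8.82 with miR-130a-3p, 8.52 with miR-151a-3p and 8.04 with let-7d-3p, and with miR-146a-5p it was 1.07 above mimic NC, the highest of the 6. RSAD2 (viperin), which makes a chain-terminating analogue of CTP, had signals of 15.33 with miR-146a-5p, 15.06 with let-7e-5p, 14.59 with mimic NC, 14.28 with miR-130a-3p, 14.17 with miR-151a-3p and 13.79 with let-7d-3p. ISG20 and RSAD2 had the same order of arrays. SAMHD1, which depletes deoxynucleotides, had a range of only 0.46, with signals of 15.90 with miR-146a-5p, 15.66 with mimic NC, 15.66 with let-7e-5p, 15.58 with miR-151a-3p, 15.48 with miR-130a-3p and 15.44 with let-7d-3p. PNPT1, a mitochondrial RNA exonuclease, was lower with let-7d-3p (-0.52) and miR-151a-3p (-0.45) and higher with miR-146a-5p (0.38).

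RSAD2 lies beside CMPK2, a mitochondrial nucleotide kinase that supplies CTP to viperin, on chromosome 2. Their ratios were -0.80 and -0.72 with let-7d-3p, 0.47 and 0.33 for let-7e-5p, and 0.74 and 0.64 for miR-146a-5p. For miR-130a-3p they were -0.31 and -0.34, and for miR-151a-3p -0.42 and -0.31. The genes of this pair thus differed by at most 0.14. As with PARP9 and DTX3L, an ISRE-like match (capitals) is held by the promoter windows of both genes, at chr2:6865806-6865814 of GRCh38.p14. It begins 79 bases before a start of RSAD2 (plus strand, printed as chr2:6865796-6865825) and 5 bases past a start of CMPK2 (minus strand, printed as chr2:6865795-6865824).
RSAD2: agcgggaaacGAAAGCGAAgcgttgcgggg
CMPK2: cccgcaacgcTTCGCTTTCgtttcccgctg

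LAMP3 had signals of 8.52 with miR-146a-5p, 7.73 with mimic NC, 7.63 with let-7e-5p, 7.61 with miR-130a-3p, 7.01 with miR-151a-3p and 6.75 with let-7d-3p. CD38 had signals of 7.74 with miR-146a-5p, 6.87 with let-7e-5p, 6.60 with mimic NC, 6.59 with miR-151a-3p, 6.11 with let-7d-3p and 6.02 with miR-130a-3p. In both the miR-146a-5p array stood apart, and let-7e-5p was nearer to mimic NC than to miR-146a-5p. IDO1 had signals of 7.73 with miR-146a-5p, 7.60 with let-7e-5p, 7.10 with miR-151a-3p, 6.76 with mimic NC, 6.33 with let-7d-3p and 6.22 with miR-130a-3p. Here let-7e-5p was near miR-146a-5p, and miR-151a-3p was above mimic NC, so IDO1 separated miR-151a-3p from miR-130a-3p.

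RTP4, an interferon-induced zinc finger protein of the endoplasmic reticulum, had signals of 10.49 with miR-146a-5p, 10.12 with let-7e-5p, 9.83 with miR-151a-3p, 9.77 with mimic NC, 9.51 with miR-130a-3p and 8.95 with let-7d-3p. It was 1.77-fold lower with let-7d-3p and 1.65-fold higher with miR-146a-5p. EPSTI1, an interferon-induced gene of macrophage activation, was 1.51-fold lower with let-7d-3p. LGALS3BP, a secreted ligand of galectins, was lowest with miR-130a-3p (-0.50).

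LGALS9 and SIGLEC1 had their highest signal with mimic NC. LGALS9 (galectin-9) had signals of 16.22 with mimic NC, 16.16 with let-7e-5p, then 16.02 with miR-146a-5p, 16.00 with let-7d-3p, 16.00 with miR-151a-3p and 15.93 with miR-130a-3p. SIGLEC1, the sialic acid receptor CD169 of macrophages, had signals of 12.04 with mimic NC, 12.02 with miR-146a-5p, 11.88 with let-7e-5p, 11.86 with miR-130a-3p, 11.76 with miR-151a-3p and 11.32 with let-7d-3p. Its ratios to mimic NC were -0.72 with let-7d-3p, -0.28 with miR-151a-3p, -0.18 with miR-130a-3p, -0.16 with let-7e-5p and, nearest to 0, -0.02 with miR-146a-5p. The order of the mimics was close to that of the other genes for SIGLEC1, with let-7d-3p lowest and miR-146a-5p highest among them. It was not so for LGALS9, where let-7d-3p and miR-146a-5p differed by 0.02.

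BST2 (tetherin), which holds budding virions at the cell surface, had signals of 12.38 with miR-146a-5p, 12.22 with let-7e-5p, 12.04 with mimic NC, 11.93 with miR-130a-3p, 11.89 with let-7d-3p and 11.89 with miR-151a-3p. SP100, a scaffold of PML nuclear bodies, had signals of 13.00 with miR-146a-5p, 12.82 with let-7e-5p, 12.70 with mimic NC, 12.64 with miR-151a-3p, 12.61 with miR-130a-3p and 12.48 with let-7d-3p. Both were within 1.27-fold of mimic NC throughout. SP110, its neighbour and relative, had ratios from -0.37 with let-7d-3p to 0.31 with miR-146a-5p. PLSCR1, a phospholipid scramblase, ranged from -0.44 to 0.26, and XAF1, an antagonist of the apoptosis inhibitor XIAP, from -0.40 to 0.28. LY6E, a membrane protein that blocks coronavirus entry, was lowest with miR-151a-3p (-0.49).

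**Figure D3:**
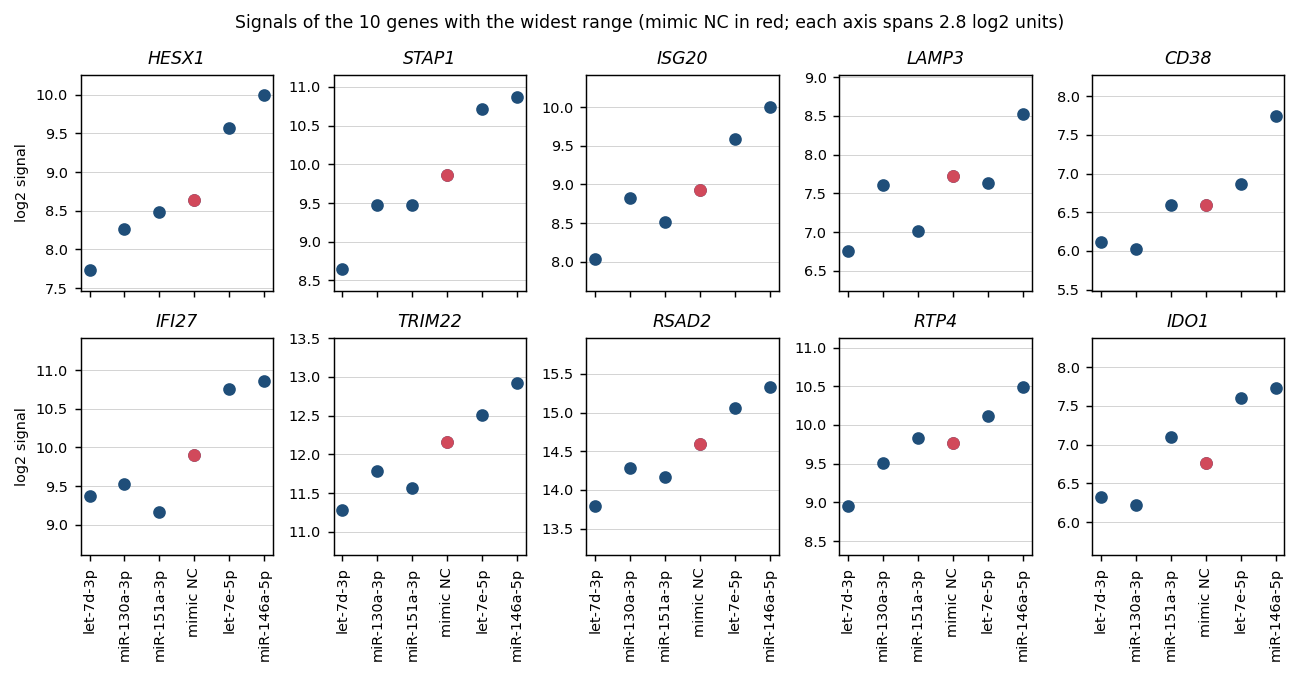
Log2 signal (y axes, each spanning 2.8 units) on the 6 arrays (x axis, mimic NC in red) for the 10 genes with the widest range. The miR-146a-5p point is the highest in all 10 panels, and the let-7d-3p point is the lowest in all except CD38, IDO1 and IFI27.

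The range, the highest minus the lowest log2 signal, was at least 1 for 19 of 44 genes, against 7.10% of all genes, and its median was 0.94 against 0.48. The genes were ordered by it into 15 strong, 14 middle and 15 weak genes, as a description with no test. APOL3 (1.27) and TRIM5 (1.18) lay on either side of the first limit, and PARP9 and SIGLEC1 (both 0.72) at the second, where the order is by name. The strong genes held 2 of 5 IFI genes, 2 of 4 APOL genes, 1 of 6 TRIM genes, 0 of 5 PARP genes and SAMD9. The medians with let-7d-3p were -0.80 for the strong and -0.25 for the weak genes, and with miR-146a-5p 0.76 and 0.25. The direction was mostly shared, since all 15 weak genes were lower with let-7d-3p and 13 of them higher with miR-146a-5p.

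Probe sets of the strong genes were dimmer. Their median signal was 9.84, against 11.60 for the middle and 13.76 for the weak genes. Over the 44 genes the range and the mean signal had a Pearson correlation of -0.65, and over the 11469 genes above background one of -0.46. These points share arrays and normalization, and genes are not independent replicates. Its part in the division into strong and weak genes was not tested.

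**Figure D4:**
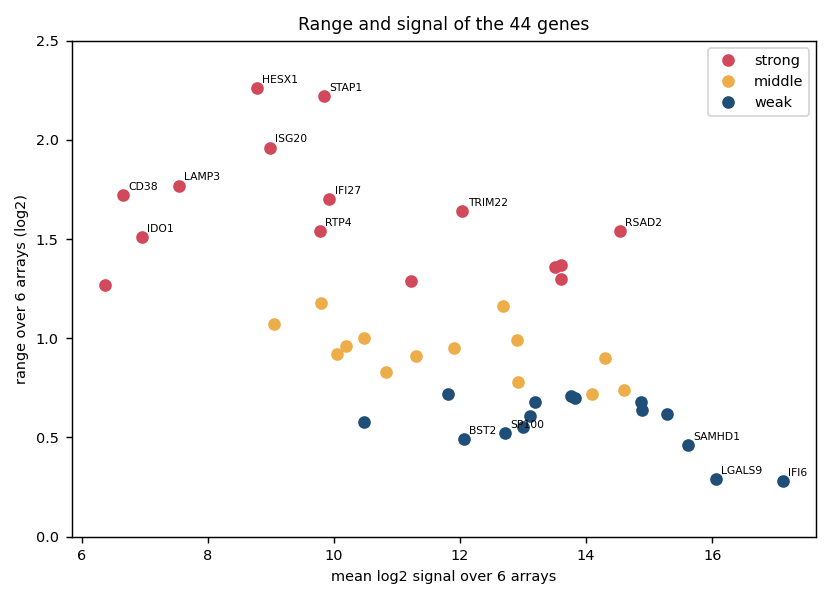
Range over the 6 arrays (y axis, log2) against the mean log2 signal (x axis) for the 44 genes, coloured by strong, middle and weak. The weak genes lie towards bright probe sets, with IFI6 and LGALS9 at the right, and RSAD2 is the brightest of the strong genes.

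Promoter windows of RefSeq (GRCh38.p14, 250 bases before to 50 after a start) were at hand for 34 of the 44 genes. They were searched on both strands for the ISRE core GAAANNGAA and for TTCNNNGAA, the site of STAT dimers (GAS), which can overlap it. An ISRE match was found for 23 of the 34 (67.6%), against 9.05% of the 9510 genes above background with a window, and in 8.11% of all 35116 windows. It was found for 8 of 10 strong, 7 of 11 middle and 8 of 13 weak genes. A GAS match was found for 9 of the 34 (26.5%), against 8.43% of genes above background and 7.66% of all windows, with 1 of 10 strong, 4 of 11 middle and 4 of 13 weak genes. Where a gene had several windows, a match in any of them counted. A match is a description of letters and not evidence of binding.

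The sequences below show that ISRE-like letters (capitals) stood before genes of both ends of the order. IFI6, the gene with the narrowest range, had 3 matches, as had RTP4, a strong gene. The promoters of HESX1 and STAP1, with the widest ranges, had none in these windows. The stretches printed are chr1:27672329-27672358, chr1:27672288-27672317 and chr1:27672266-27672295 for IFI6 (minus strand) and chr3:187368357-187368386 for RTP4 (plus strand). That of ISG20 is chr15:88638937-88638966 (plus strand) and that of SAMD9 chr7:93118096-93118125 (minus strand), all on GRCh38.p14. No match was found for SAMD9L, the paralog with the narrower range.
IFI6 site a: ggagagagggGAAAATGAAactctgcagag
IFI6 site b: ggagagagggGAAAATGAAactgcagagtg
IFI6 site c: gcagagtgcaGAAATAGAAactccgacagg
RTP4: accgaacaccGAAACTGAAactgtttgtct
ISG20: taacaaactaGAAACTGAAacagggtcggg
SAMD9: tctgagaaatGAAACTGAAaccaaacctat

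Other genes of the pathway were set beside the list. The core interferon-stimulated genes, such as the IFIT, OAS, MX and GBP families, had 34 measured genes. With let-7d-3p 33 were lower (53.2% of all genes), with a median of -0.55. With miR-146a-5p 34 were higher (51.1% of all genes), with a median of 0.44. They were at least 1.5-fold lower and higher in 12 and 10 cases, against 3.28% and 2.97% of all genes. Their medians were 0.33 for let-7e-5p, -0.24 for miR-130a-3p and -0.25 for miR-151a-3p, within 0.08 of those of the effector genes. The smaller lists that follow are parts of this core list and were added after values were seen, so they are a description. Guanylate-binding and Mx proteins differed more, with medians of -0.73 with let-7d-3p and 0.82 with miR-146a-5p over 7 genes. Oligoadenylate synthetases were at -0.53 and 0.36 over 4 genes, and IFIT and IFITM genes at -0.55 and 0.40 over 7 genes.

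Interferons themselves were mostly not measurable. Of 19 interferon genes 18 were not above background, among them IFNB1, the interferon beta gene, between 3.45 and 4.40. The 8 interferon receptor and JAK kinase genes above background had medians between -0.02 and 0.13 over the 5 mimics. JAK2, a kinase of cytokine receptors, was the only one of them at least 1.5-fold away from mimic NC with any mimic. This was 1 of 8 genes with miR-146a-5p, against 2.97% of all genes, and a single gene gives no result for the group. The ratios of JAK2 were 0.71 with miR-146a-5p (1.64-fold higher), 0.34 with let-7e-5p, -0.01 with miR-151a-3p, -0.25 with let-7d-3p and -0.29 with miR-130a-3p. The 12 measured housekeeping genes had medians between -0.08 and 0.05.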

How the data were processed

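RNA of 6 THP-1 cultures was hybridised to Human Clariom S arrays. The authors deposited 1 log2 signal per probe set and array. The submitters' processing notes name RMA and Transcriptome Analysis Console 4.0, while RMA settings, the arrays normalized together and the genome build were not given in the sources used here. The labels give Trizol for RNA extraction and the paper the RNeasy kit.

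Of 21448 probe sets 17709 had a symbol, and the probe sets of 20 genes with several were averaged. Genes whose mean exceeded background were kept. Mimics were compared with mimic NC as differences of log2 signals, counted at 1.5-fold, with no test. The members, lists and rules were chosen with earlier results of these data known. Signals on every array were printed for the 10 genes with the widest and the 5 with the narrowest range, the 2 highest and 2 lowest ratios of each mimic and the widest and narrowest gene of each group. Genomic neighbours were set side by side, and the remaining genes are named by single values or counts. The lists of OAS, IFIT and GBP genes were added after values were seen. Alternatives were the median of the other 4 mimics as comparator, 2-fold and 3-fold, background filters, repeated normalization, a lowess trend (span 0.3), a pseudocount of 32, the brightest probe set, the mean, and the range without mimic NC. Scripts (Python 3.11.15, pandas 2.3.3, statsmodels 0.14.6) were tested on simulated data.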

Additional observations from a re-analysis of the deposited data

How the results depend on the processing

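No paired analysis was possible because there was only 1 array for every mimic. With 1 array per group no setting can show which differences would recur. No median over the 44 genes changed sign under any alternative run. The medians of the 4 families were run with 1 alternative only, the median of the other 4 mimics as comparator, and none changed sign. Of the values compared 98, all but 25, stayed near the reported one (medians within 0.1, counts within 1.5 times). The 98 include values under the background filters, which kept the same 44 genes and so could not change them. The brightest probe set also gave the reported values. Repeated quantile normalization, centring, the lowess trend, the background filters, the pseudocount, the brightest probe set and the mean left all 5 medians within 0.1.

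With the other 4 mimics' median as comparator, the median over the list was 0.62 for miR-146a-5p and 0.44 for let-7e-5p. At 1.5-fold 22 genes were then higher with miR-146a-5p and 15 with let-7e-5p, and 5 were lower with miR-151a-3p and 5 with miR-130a-3p, against 1.98%, 1.72%, 2.62% and 1.62% of all genes. The family medians that moved were -0.38 (PARP), -0.47 (TRIM) and -0.78 (IFI) with let-7d-3p, 0.39 (TRIM), 0.56 (APOL) and 0.62 (IFI) with let-7e-5p, and 0.53 (PARP), 0.51 (TRIM), 0.84 (APOL) and 0.80 (IFI) with miR-146a-5p. At 2-fold 1 gene was lower with let-7d-3p, 4 were higher with miR-146a-5p, and 0 passed with let-7e-5p and miR-151a-3p, against 0.270%, 0.288%, 0.235% and 0.453% of all genes. At 3-fold 0 of the 44 genes passed with any mimic, and of all genes between 0 and 4 did. With centred arrays 1 gene was 1.5-fold lower with miR-130a-3p, where the reported count is 0, against 3.12% of all genes. Of the 38 single ratios of at least 1.5-fold, 25 moved by more than 0.1 with the other comparator and 6 with the pseudocount, all in the same direction as reported. Among these 6, the ratio of APOL3 with miR-146a-5p was below 1.5-fold with the pseudocount (0.55).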
